A study of Homo sapiens with 8 samples.

Results

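The HOX genes encode homeodomain transcription factors and lie in 4 clusters, HOXA on chromosome 7, HOXB on chromosome 17, HOXC on chromosome 12 and HOXD on chromosome 2. Members were chosen by name, as protein-coding genes whose symbol is HOXA, HOXB, HOXC or HOXD followed by a position number. The 38 genes described here are 10 of HOXA, 10 of HOXB, 9 of HOXC and 9 of HOXD, out of 63241 Ensembl gene identifiers measured. HepG2 and Huh7 are established liver cancer cell lines, and each was sequenced as parental sensitive cells (WT) and as sorafenib-resistant cells (SR), which the authors derived by stepwise exposure to rising concentrations of sorafenib, a multikinase inhibitor. Each of the 4 groups had 2 libraries, and all 8 libraries carry a single batch name in the labels. The labels give HepG2 WT and Huh7 WT as controls and HepG2 SR and Huh7 SR as sorafenib-treated, and the labels give no genetic alteration for any group. Whether the 2 libraries of a group came from separate cultures, and whether an SR line is a clone or a pool, is not stated, so p-values measure only the spread between these libraries.

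In the embryo the HOX genes set position along the body axis, and genes at the 3′ end of a cluster (low position numbers) are switched on earlier and nearer the head than genes at the 5′ end (high position numbers). Polycomb proteins hold HOX clusters silent through H3K27 methylation, Trithorax proteins hold them active, and retinoic acid and CDX factors open them. HOX proteins bind DNA together with PBX, MEIS and PKNOX cofactors, and many cancer cells carry a HOX pattern that differs from that of their tissue of origin.

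Not all libraries followed their labels. Expression is given in FPKM, fragments scaled by transcript length and by the total of the library. Across the 15173 genes that reached an FPKM of 1 in 2 or more libraries, Pearson's r of log2(FPKM + 1) was 0.914 to 0.977 among 5 libraries, which were both HepG2 WT libraries, HepG2 SR 1, Huh7 SR 2 and Huh7 WT 2. Huh7 WT 1 resembled Huh7 SR 1 (r of 0.965) and neither exceeded 0.783 with those 5, and HepG2 SR 2 stood apart from both sets. The names of the labels are kept throughout, and the tests are given with all 8 libraries and within the 5 similar ones. Of 10 liver markers, 9 or 10 reached an FPKM of 1 in each library. TTR stayed under 1 in Huh7 WT 1 and Huh7 SR 1, and FGB did in Huh7 WT 2. Albumin (ALB) was at 11.98 and 42.3 FPKM in Huh7 WT 1 and Huh7 SR 1 and at 604 FPKM or more in the other 6. FGB went the other way, at 380 and 327 FPKM in Huh7 WT 1 and Huh7 SR 1. It was at 128 FPKM in HepG2 SR 2 and at 0.386 to 4.51 in the 5 similar libraries. Alpha-fetoprotein (AFP) was at 1100 FPKM in HepG2 SR 2 and at most 35.8 FPKM elsewhere. Marker genes of fibroblasts summed to at most 4.93 FPKM and those of endothelial cells to at most 4.52 FPKM in any library. Of 5 blood and immune markers, CD68 alone reached an FPKM of 1.

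The HOX pattern separated the libraries into the same 3 sets. In the 5 similar libraries between 3 and 5 of the 38 genes reached an FPKM of 1, which is used here as the mark of an expressed gene, whereas 14 did in Huh7 WT 1, 12 in Huh7 SR 1 and 26 in HepG2 SR 2. The summed FPKM of the 38 genes was between 13.9 and 31.1 in the 5 libraries, 49.3 and 46.7 in Huh7 WT 1 and Huh7 SR 1, and 183 in HepG2 SR 2. HOXA3, HOXA4 and HOXA5 reached an FPKM of 1 in all 8 libraries, 10 genes reached it in none, and 12 reached it in exactly 1 library, which was HepG2 SR 2 for 11 of them. HepG2 SR 2 held the highest value of 30 of the 38 genes.

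**Figure D1:**
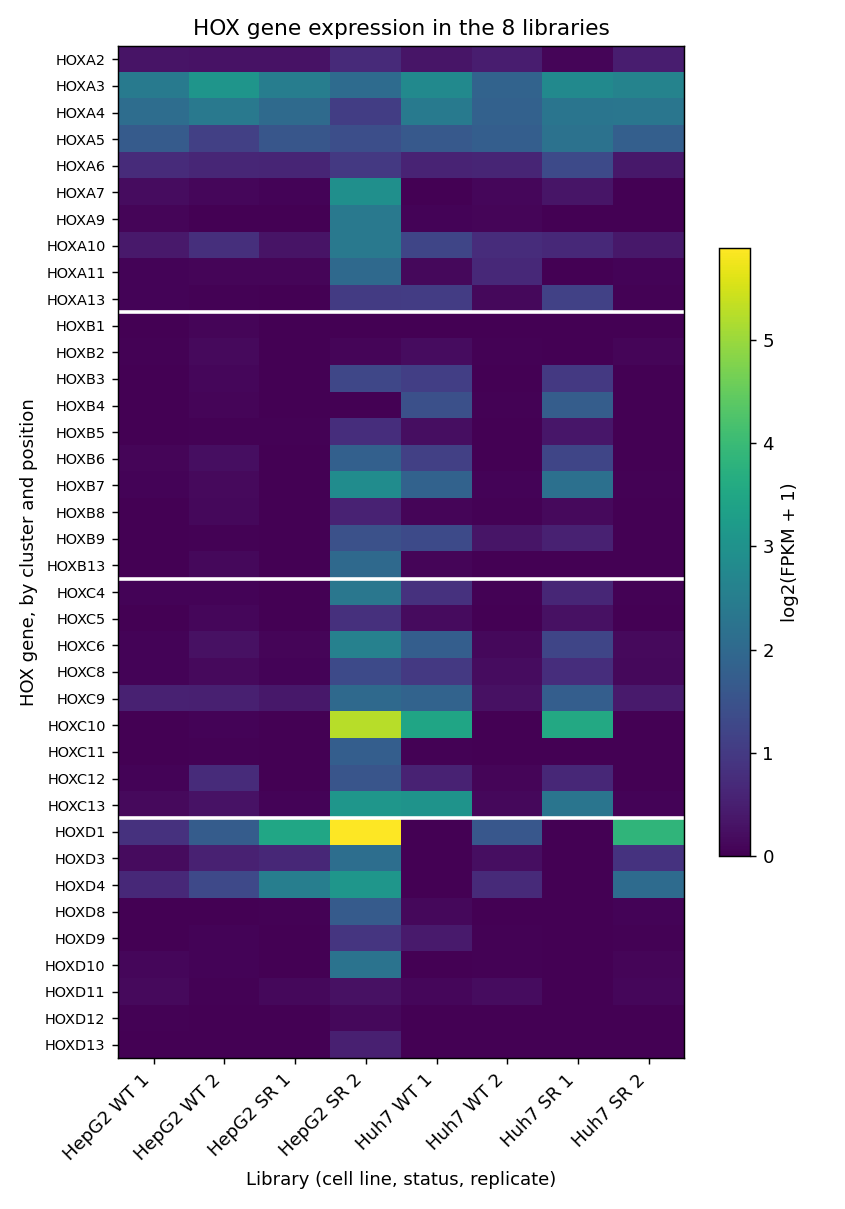
Expression of the 38 HOX genes (rows, by cluster and position) in the 8 libraries (columns), as log2(FPKM + 1) by colour. HOXA3 to HOXA5 are coloured in every column, HOXB and HOXC genes in HepG2 SR 2, Huh7 WT 1 and Huh7 SR 1, and HOXD1 and HOXD4 in 6 columns, with the lowest values of HOXD in Huh7 WT 1 and Huh7 SR 1.

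The 3′ HOXA genes were the shared HOX expression of these cells. HOXA3, which acts in patterning of the pharynx and neck organs, was at 4.38 and 7.44 FPKM in HepG2 WT, 4.62 and 3.19 in HepG2 SR, then 5.92 and 2.65 in Huh7 WT and 5.97 and 5.26 in Huh7 SR. HOXA4 was at 3.29 and 4.25 FPKM in HepG2 WT, 3.11 and 1.10 in HepG2 SR, then 4.36 and 2.56 in Huh7 WT and 3.92 and 3.997 in Huh7 SR. HOXA5, a regulator of lung development, was at 2.24 and 1.18 FPKM in HepG2 WT, 1.98 and 1.67 in HepG2 SR, then 2.11 and 2.37 in Huh7 WT and 3.66 and 2.42 in Huh7 SR. In such bulk RNA, fewer cells expressing a gene and less of its RNA per cell cannot be told apart. The WT and SR libraries overlapped for all 3 genes over both lines, and none of the 3 was called in any comparison. HOXA2 was at most 0.640 FPKM in any library.

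The 5′ part of HOXA was expressed mainly in 1 library. HOXA7, HOXA9 and HOXA11 were at 6.60, 4.23 and 3.05 FPKM in HepG2 SR 2 and no higher than 0.253, 0.0559 and 0.608 FPKM in any other. HOXA10, which patterns the lumbar spine and the uterus, was at 4.23 FPKM in HepG2 SR 2, 1.34 in Huh7 WT 1 and at most 0.737 elsewhere. HOXA13, a gene of the limb tips and the hindgut, was at 1.06 FPKM in Huh7 WT 1, 1.19 in Huh7 SR 1 and 1.03 in HepG2 SR 2, and at most 0.0911 in the 5 similar libraries. The summed FPKM of HOXA was 9.99 to 14.5 in those 5, 15.7 and 17.1 in Huh7 WT 1 and Huh7 SR 1, and 26.7 in HepG2 SR 2, the narrowest range, in ratio, of the 4 clusters. HOXA7 shares 62.5% of its exonic bases with HOXA-AS3 on the opposite strand, which was at most 0.394 FPKM.

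HOXB and HOXC were near silence in 5 libraries and on in the other 3. All 19 genes of these clusters stayed below an FPKM of 1 in the 5 similar libraries, with a highest value of 0.658 for HOXC12 in HepG2 WT 2. That library listed 38276 genes above 0, where the others listed between 27188 and 29071, and it was the sole library with all 10 HOXB genes above 0, the highest of them HOXB6 at 0.155 FPKM. Whether its wider background accounts for these low HOX values was not tested.

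Within HOXB, HOXB7 was at 0.0331 and 0.103 FPKM in HepG2 WT, 0 and 6.28 in HepG2 SR, then 2.62 and 0.0334 in Huh7 WT and 3.54 and 0.0315 in Huh7 SR. HOXB6 was at 0.0520 and 0.155 FPKM in HepG2 WT, 0 and 2.51 in HepG2 SR, then 1.17 and 0 in Huh7 WT and 1.35 and 0 in Huh7 SR. HOXB4, known for expanding blood stem cells, was at 0 and 0.0652 FPKM in HepG2 WT, at 0 in both HepG2 SR libraries, at 1.70 and 0.0207 in Huh7 WT and at 2.35 and 0 in Huh7 SR. HOXB7 and HOXB6 were high in HepG2 SR 2 and in the Huh7 libraries of replicate 1 and low in the 5 others, so their values followed the set of a library and not its WT or SR label. HOXB4 separated the high libraries from each other, being listed at 0 in HepG2 SR 2. HOXB13, a gene of the prostate and the tail end of the embryo, was at 3.05 FPKM in HepG2 SR 2 and at most 0.0837 in the other 7.

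In HOXC, HOXC10, which marks lumbar motor neurons and hindlimb tissue, had the largest value of any HOXB or HOXC gene. HOXC10 was at 0 and 0.0330 FPKM in HepG2 WT, 0 and 37.5 in HepG2 SR, then 9.95 and 0 in Huh7 WT and 10.8 and 0.0160 in Huh7 SR. HOXC13, a regulator of hair keratins, was at 0.107 and 0.229 FPKM in HepG2 WT, 0.0358 and 7.59 in HepG2 SR, then 7.11 and 0.0983 in Huh7 WT and 3.88 and 0.0420 in Huh7 SR. HOXC9 was at 0.461 and 0.426 FPKM in HepG2 WT, 0.294 and 3.04 in HepG2 SR, then 2.69 and 0.195 in Huh7 WT and 2.40 and 0.333 in Huh7 SR. All 3 genes were high in HepG2 SR 2 and in the Huh7 libraries of replicate 1 and low in the 5 others. HOXC11 and HOXC4 were at 2.41 and 4.02 FPKM in HepG2 SR 2 and stayed below 1 in the Huh7 libraries. On their shared strand HOXC4 and HOXC6 have 484 exonic bases in common, and how reads of these bases were assigned is not known.

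**Figure D2:**
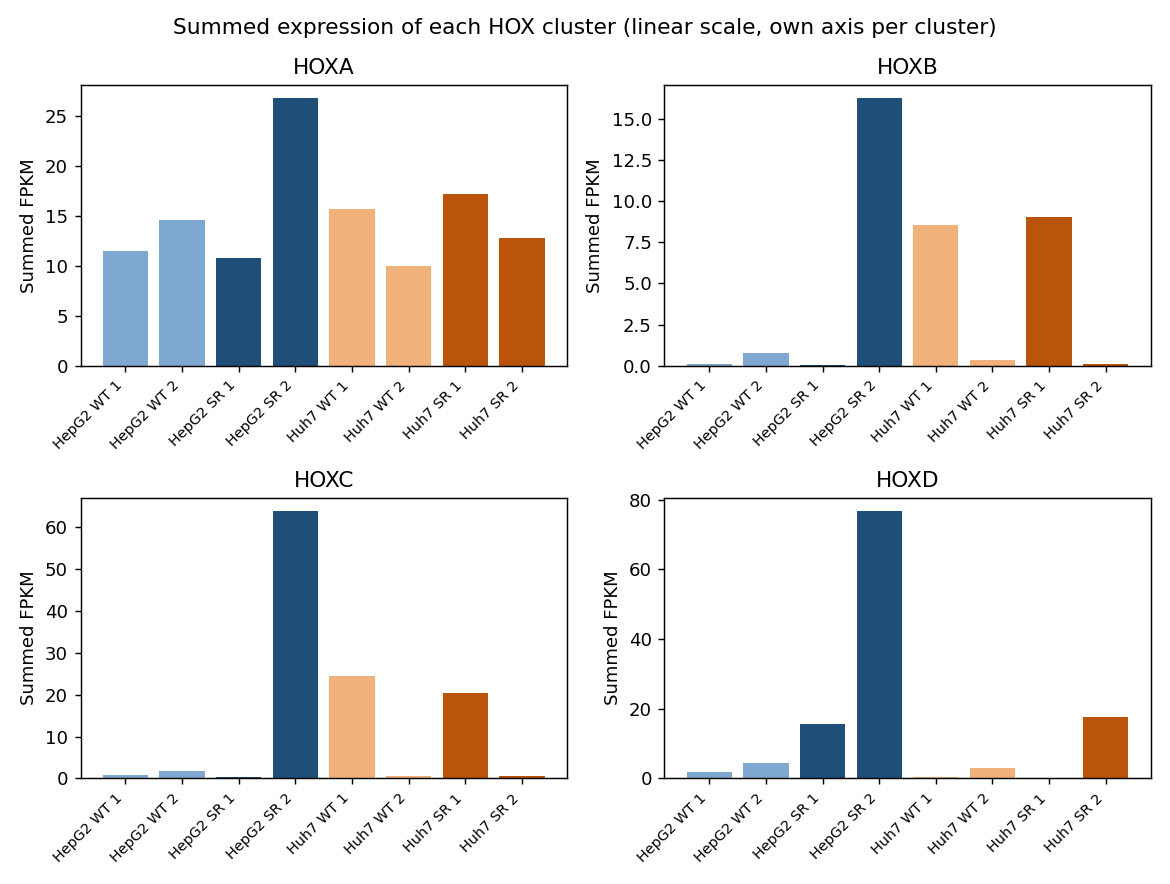
Summed FPKM (bars, linear axis from 0, a separate scale for each cluster) of HOXA, HOXB, HOXC and HOXD in each of the 8 libraries. HOXB and HOXC stand at 8.56 to 63.8 in HepG2 SR 2, Huh7 WT 1 and Huh7 SR 1 and at no more than 1.78 in the 5 similar libraries, whereas HOXD is lowest in Huh7 WT 1 and Huh7 SR 1.

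At high positions the number of expressed genes followed the sets as well. Of the 16 genes at positions 9 to 13, 12 reached an FPKM of 1 in HepG2 SR 2, 6 in Huh7 WT 1, 4 in Huh7 SR 1 and 0 in the 5 similar libraries, where the highest was HOXA10 at 0.737. Of the 14 genes at the lowest positions, up to 5, between 3 and 5 reached it in the 5 similar libraries. The number was 5 in Huh7 WT 1, 4 in Huh7 SR 1 and 8 in HepG2 SR 2. This number did not set the Huh7 libraries of replicate 1 apart from the 5, but the genes behind it differed. HOXB4 was at 1.70 and 2.35 FPKM in Huh7 WT 1 and Huh7 SR 1 and at most 0.0652 in the 5. HOXD1 was listed at 0 in both and was at 0.803 FPKM or more in the 5. HOXD11, HOXD12 and HOXD13, the posterior end of HOXD, stayed at or under 0.432 FPKM in every library, and HOXB1 and HOXB2 at the anterior end of HOXB at or under 0.141 FPKM.

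HOXD1, HOXD3 and HOXD4 had higher values in SR than in WT within the 5 similar libraries, as did HOXD8, at no more than 0.0448 FPKM. The rest of HOXD did not. In those 5 libraries HOXD9 to HOXD12 had lower means in SR than in WT, at no more than 0.141 FPKM, and HOXD13 was listed at 0. HOXD1 (ENSG00000128645, chromosome 2, plus strand, starting at 176188579 in GENCODE 29 on GRCh38), the 3′-most gene of HOXD, was at 0.803 and 2.28 FPKM in HepG2 WT, 10.2 and 58.4 in HepG2 SR, then 0 and 2.02 in Huh7 WT and 0 and 13.5 in Huh7 SR. Both HepG2 SR libraries lay above both HepG2 WT libraries, whereas in Huh7 replicate 1 of WT and SR alike was listed at 0. HOXD4 (ENSG00000170166, plus strand, starting at 176151222) was at 0.611 and 1.48 FPKM in HepG2 WT, 4.70 and 7.52 in HepG2 SR, then 0 and 0.616 in Huh7 WT and 0.00338 and 3.14 in Huh7 SR. HOXD3 was at 0.133 and 0.450 FPKM in HepG2 WT, 0.565 and 3.35 in HepG2 SR, then 0 and 0.162 in Huh7 WT and 0 and 0.806 in Huh7 SR. The order of the libraries was alike for the 3 genes, with HepG2 SR 2 highest, HepG2 SR 1 and Huh7 SR 2 next, and Huh7 WT 1 and Huh7 SR 1 at or near 0. In the Huh7 libraries of replicate 1 the whole cluster was low, with 6 of 9 HOXD genes listed at 0 in WT and 8 of 9 in SR.

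The bases just before the RefSeq start sites of HOXD1, HOXD3 and HOXD4 are shown because these neighbouring genes had the SR difference among the 5 similar libraries. Each sequence is the 250 bases before the RefSeq start on the plus strand of chromosome 2 (GRCh38.p14), and capitals mark matches, on either strand, to a CCAAT box (CCAAT) or a GC box (GGGCGG). The RefSeq starts lie downstream of the GENCODE gene starts, by 89 bases for HOXD1, 328 for HOXD4 and 20695 for HOXD3. Against GENCODE, the windows of HOXD3 and HOXD4 and the last 89 bases of that of HOXD1 therefore lie inside the gene.
HOXD1, chr2:176188418-176188667: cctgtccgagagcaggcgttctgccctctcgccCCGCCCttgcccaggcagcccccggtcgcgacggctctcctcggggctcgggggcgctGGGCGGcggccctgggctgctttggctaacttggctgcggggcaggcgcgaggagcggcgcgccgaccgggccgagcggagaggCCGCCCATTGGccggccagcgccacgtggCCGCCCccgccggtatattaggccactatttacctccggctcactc
HOXD3, chr2:176157057-176157306: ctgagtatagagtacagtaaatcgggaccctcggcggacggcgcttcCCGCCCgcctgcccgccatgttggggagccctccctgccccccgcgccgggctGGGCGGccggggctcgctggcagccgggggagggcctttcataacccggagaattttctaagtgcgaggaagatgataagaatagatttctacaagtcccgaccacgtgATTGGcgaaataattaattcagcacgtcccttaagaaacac
HOXD4, chr2:176151300-176151549: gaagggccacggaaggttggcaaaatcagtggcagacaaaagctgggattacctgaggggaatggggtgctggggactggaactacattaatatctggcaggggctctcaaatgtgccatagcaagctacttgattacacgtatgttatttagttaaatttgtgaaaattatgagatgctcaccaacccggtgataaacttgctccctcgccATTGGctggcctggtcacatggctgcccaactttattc
All 3 hold 1 CCAAT match, which 32.0% of 35116 promoters of this length hold and 18 of 27 HOX promoters (20 of the 38 genes matched the table). HOXD1 holds 4 GC box matches, HOXD3 2 and HOXD4 0, and 42.6% of all promoters hold at least 1. In HOXD1 the CCAAT match directly adjoins a GC box match, and no 2 matches overlap. A TATA box (TATAAA, in 10.7% of promoters), a PBX-HOX site (TGATNNAT, in 6.47%) and a retinoid half-site (AGGTCA, in 12.1%) had no match in the 3 windows. GC content was 74.8% with 31 CpG in HOXD1, 59.2% with 21 CpG in HOXD3 and 47.6% with 4 CpG in HOXD4, where the median promoter had 58% and 11 CpG.

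SR was compared with WT in each line to ask which HOX genes change with acquired sorafenib resistance. The test was limma on log2(FPKM + 1), in a model of 4 group means. A gene was called where the unadjusted p was below 0.05 and the change on the log2 scale was 0.5 or more, or below -0.5. Of the 38 genes, 16 entered the test, which were 5 of HOXA, 5 of HOXB, 4 of HOXC and 2 of HOXD. Fold changes on this scale understate the change of weakly expressed genes.

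In HepG2 SR versus HepG2 WT, 2 of the 16 genes rose and none fell, where 2.14% of all genes tested were called. HOXD1 rose by 3.41 on the log2 scale (SE 1.36, limma adjusted p = 0.956) and HOXD4 by 1.80 (SE 0.71, limma adjusted p = 0.956), where SE is the standard error. The median of the 16 genes was 0.74 and that of all genes tested -0.03, but most of the members passed the filter through the 3 libraries that stood apart, so this median describes the libraries that hold them. Both calls were lost in the model of the remaining 7 libraries without HepG2 SR 2, at log2 fold changes of 2.21 for HOXD1 and 1.51 for HOXD4, where 0.376% of all genes were called. They were also lost without HepG2 WT 1, at 2.97 and 1.49 (0.481% of all genes called), and without HepG2 WT 2, at 3.84 and 2.11 (1.64%). Without HepG2 SR 1 the value of HOXD1 was 4.61 and that of HOXD4 2.09, and the latter was not called, where 11.5% of all genes were.

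In Huh7 SR versus Huh7 WT, 0 of the 16 genes were called by limma at either the unadjusted or the adjusted threshold, against 1.87% of all genes tested. HOXD1 changed by 1.13 (SE 1.36) and HOXD4 by 0.68 (SE 0.71), each less than its standard error. The median of the 16 was 0.06. Without Huh7 SR 1, whose HOXD genes were at or near 0, both HOXD1 and HOXD4 were called, where 3.74% of all genes were.

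With the change averaged over both lines, HOXD4 alone was called, at 1.24 (SE 0.50, limma adjusted p = 0.998), against 3.93% of all genes tested. That call was lost without HepG2 WT 1 (1.09), HepG2 WT 2 (1.40), HepG2 SR 1 (1.39), HepG2 SR 2 (1.10), Huh7 WT 1 (1.07) or Huh7 SR 2 (0.73), where between 1.27% and 8.42% of all genes were called. HOXD1 was at 2.27 (SE 0.96), with an unadjusted p of 0.0514. No HOX gene had all 4 SR libraries above all 4 WT libraries. The difference between the changes in the 2 lines was called for 0 of the 16 genes, against 0.606% of all genes tested, and was -2.27 (SE 1.93) for HOXD1 and -1.12 (SE 1.001) for HOXD4. Leaving out HepG2 SR 1 gave 3 called genes (HOXA10, HOXB9 and HOXC6), where 6.23% of all genes were called, and leaving out Huh7 SR 2 gave 2 (HOXD1 and HOXD4), where 0.448% were. Within the 5 similar libraries 0 of the 16 were called, against 6.2% of all genes tested, and the difference was 0.06 (SE 0.79) for HOXD1 and -0.16 (SE 0.58) for HOXD4.

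**Figure D3:**
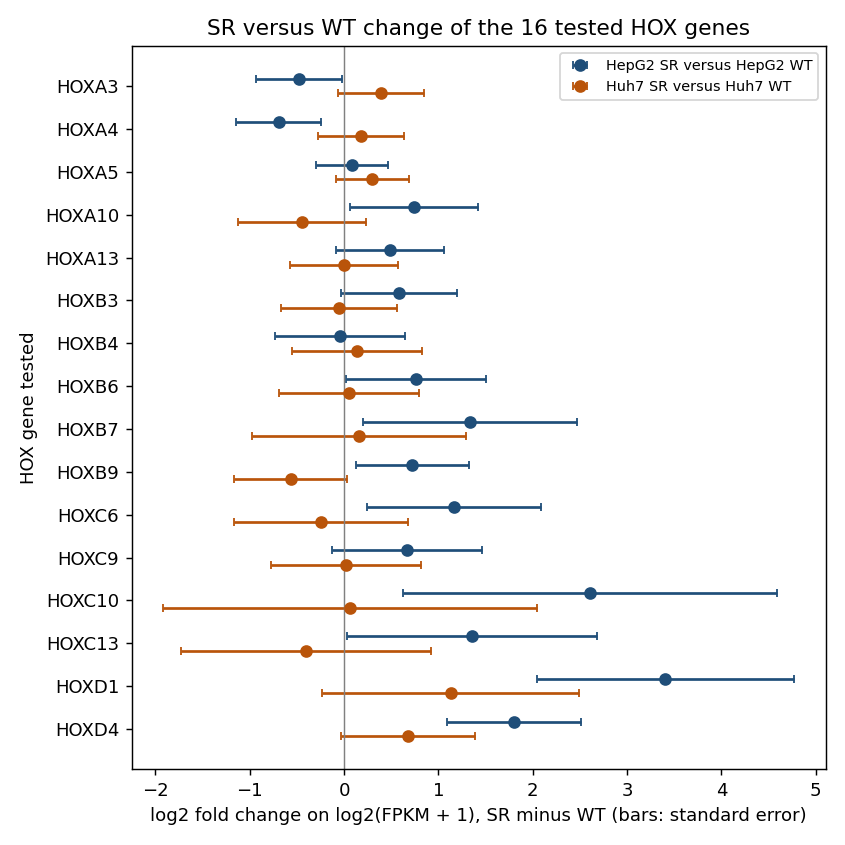
Log2 fold change of SR over WT (points) with its standard error (bars) for the 16 HOX genes tested, in HepG2 (blue) and Huh7 (orange), over 2 libraries a group. HOXD1 at 3.41 and HOXD4 at 1.80 in HepG2 are the called values, and the standard errors of HOXC10, the widest, reach 1.98.

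Between the lines, Huh7 versus HepG2 averaged over WT and SR, HOXD4 alone was called, at -1.21 (SE 0.50, limma adjusted p = 0.813), against 4.9% of all genes tested. Within the 5 similar libraries 0 of the 16 were called, against 8.32% of all genes tested, and the HOXD4 difference was -0.39. With 1 library left out it was between -1.72 and -0.70, called without Huh7 SR 2 alone, where 11.4% of all genes were, and at -0.70 without Huh7 SR 1. HOXC10 differed by 0.43 (SE 1.40), since it was high in 1 HepG2 library and in 2 Huh7 libraries. After Benjamini-Hochberg adjustment over all genes tested, 0 HOX genes had an adjusted p under 0.05 in any of the 5 comparisons with limma.

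Within the 5 similar libraries, 3 WT and 2 SR, the genes with both SR values above all WT values were HOXD1, HOXD3, HOXD4 and HOXD8, the last at no more than 0.0448 FPKM. Mean HOXD1 was 11.9 FPKM in the SR libraries and 1.70 FPKM in the WT libraries, a ratio of 6.97, and the ratio was 6.62 in HepG2 (SR 1 over the mean of WT) and 6.69 in Huh7 (SR 2 over WT 2). Mean HOXD4 was 3.92 FPKM against 0.903 FPKM, a ratio of 4.34, with 4.50 in HepG2 and 5.09 in Huh7. The Huh7 ratios rest on 1 library of each state. Of the 5 libraries Huh7 WT 2 was the least like the rest, with r of 0.914 to 0.918 over all genes tested. The 10 liver markers summed to 2082 FPKM in Huh7 WT 2 and 7739 FPKM in Huh7 SR 2, so the 2 libraries differed in more than HOXD. HepG2 SR 1 and Huh7 SR 2 had the highest r of any pair of libraries, 0.977 over all genes tested and 0.990 over the HOX genes. Whether these libraries are of distinct lines was not tested, so the like ratios are not taken as replication across lines. The lower SR library was 4.48 times the highest WT library for HOXD1 and 2.12 times for HOXD4. Of the 16 tested genes, HOXD1 and HOXD4 were the 2 with both SR libraries above all 3 WT libraries. Among all genes tested 9.27% had this order, so the count of 2 does not set the HOX genes apart. Of the 38 genes, HOXA7, HOXA10, HOXB7, HOXC12 and HOXC13 had both SR libraries below all 3 WT libraries, at levels of at most 0.737 FPKM in the 5. The 3 of them that were tested were HOXA10, HOXB7 and HOXC13, and 13.9% of all genes tested had this order.

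In a limma fit of these 5 libraries, HOXD1 and HOXD4 were called in HepG2, at 2.21 (SE 0.52) and 1.51 (SE 0.38), against 3.12% of all genes tested. They were called in Huh7, at 2.26 (SE 0.60) and 1.36 (SE 0.44), against 11.7%, and in the average of both lines, at 2.23 (SE 0.40) and 1.43 (SE 0.29), against 9.48%. This fit had 1 residual degree of freedom, and its lone SR and WT libraries are assumed to vary like the HepG2 WT pair. The adjusted p from limma was 0.464 for both genes in the average of both lines.

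HOXD3, which reached an FPKM of 1 in HepG2 SR 2 alone and so was not tested, had SR values of 0.565 and 0.806 FPKM against WT values of 0.133 to 0.450 FPKM, a ratio of means of 2.76. The summed FPKM of HOXD was 15.6 and 17.6 in the SR libraries and 1.77 to 4.32 in the WT libraries of this set, and HOXD made up 58.1% and 56.7% of the summed HOX FPKM in SR and between 12.6% and 21.4% in WT. HOXA made up the largest share in the WT libraries, between 67.9% and 81.3%. The summed FPKM of HOXA overlapped between SR (10.8 and 12.7) and WT (9.99 to 14.5), and that of HOXC between SR (0.429 and 0.619) and WT (0.594 to 1.78). That of HOXB was lower in SR (0.0326 and 0.0936) than in WT (0.115 to 0.769), but it lay near the floor. No HOXB gene exceeded 0.268 FPKM, and of the 10, 8 were listed at 0 in HepG2 SR 1 and 7 in Huh7 SR 2 and in HepG2 WT 1. The sum of 0.769 was that of HepG2 WT 2, the library with the wider background.

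**Figure D4:**
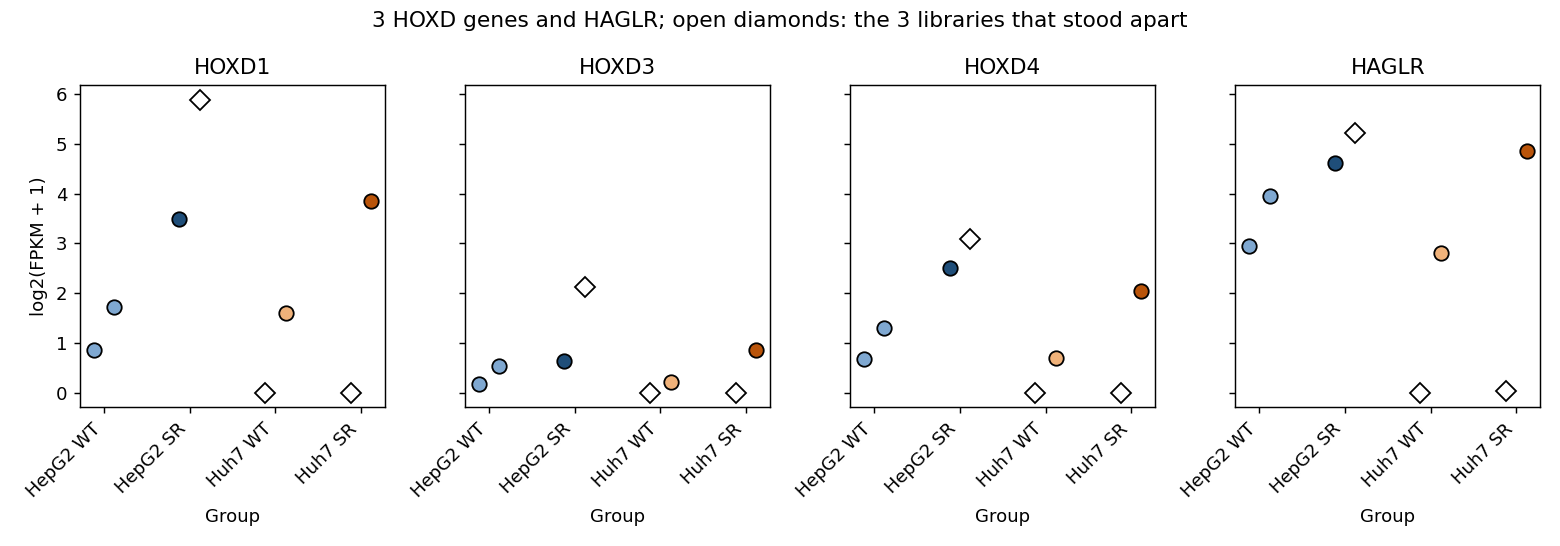
Expression of HOXD1, HOXD3, HOXD4 and the long noncoding RNA HAGLR as log2(FPKM + 1) in each library (points), by group, with open diamonds for the 3 libraries that stood apart. Filled SR points lie above filled WT points in each panel, and the diamonds of Huh7 WT and Huh7 SR lie at or near 0.

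Among noncoding RNAs of the clusters, HAGLR, transcribed next to HOXD1 on the opposite strand, had the pattern of its neighbour. HAGLR was at 6.75 and 14.6 FPKM in HepG2 WT, 23.7 and 36.3 in HepG2 SR, then 0 and 6.04 in Huh7 WT and 0.0200 and 28.1 in Huh7 SR. Its ratio of SR to WT means in the 5 similar libraries was 2.84, and its changes of 1.46 (SE 1.58) in HepG2 and 1.04 (SE 1.58) in Huh7 were not called. Among the 5 similar libraries they were 1.16 (SE 0.55), not called, and 2.05 (SE 0.63), called, and the average of both lines was called at 1.61 (SE 0.42). HAGLR shares 158 exonic bases (8%) with HOXD1, and no source says that fragments were counted by strand, so the reads of these bases cannot be assigned. A further 50.1% of HOXD1 exonic bases are shared with AC009336.3 on the opposite strand, which was at most 0.0890 FPKM, and 80.5% of those of HOXD4 and 62.2% of those of HOXD3 with AC009336.2 on the same strand, for which no value was used here. HOTAIRM1, at the 3′ end of HOXA, was at 21.6 and 21.8 FPKM in Huh7 WT 1 and Huh7 SR 1 and between 2.08 and 4.41 in the other 6. HOTAIR, a HOXC transcript, was at 1.52 FPKM in HepG2 SR 2 and at most 0.0456 elsewhere. Of 18 listed noncoding RNAs, 4 were tested and 0 were called in each of the 5 comparisons over 8 libraries.

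The genes that act with or on the HOX clusters were given by lists. Of the TALE cofactors, 8 of 9 were tested and 0 were called in each comparison, with 8 libraries or with the 5 similar ones. In the 5 similar libraries MEIS2 was the highest cofactor, at 5.67 to 9.003 FPKM. MEIS3 was highest in HepG2 SR 2, at 16.8 FPKM. Of 22 Polycomb genes, all tested, EZH2, the H3K27 methyltransferase, rose in HepG2 SR, from 7.35 and 10.2 FPKM to 18.1 and 29.0, 1.31 on the log2 scale (SE 0.41, limma adjusted p = 0.956). EZH2 was at 17.2 and 13.3 FPKM in Huh7 WT and 25.7 and 16.1 in Huh7 SR and was called in the average of both lines, at 0.86, and PHC3 was higher in Huh7 than in HepG2, while 0 of the 22 were called in Huh7 SR. Within the 5 similar libraries neither EZH2, at 0.99 (SE 0.35) in HepG2 and 0.62 (SE 0.27) in the average, nor PHC3, at 0.50 (SE 0.26), was called, and 0 of the 22 were called in HepG2, 3 in Huh7 (1 higher, 2 lower, where 11.7% of all genes were called) and 5 in the average (2 higher, 3 lower, against 9.48%). Of 16 Trithorax-side genes, KDM6B, an H3K27 demethylase, fell in the average of both lines, at -0.91 (SE 0.33, limma adjusted p = 0.998), and it was called within the 5 similar libraries too, at -1.11 (SE 0.26, limma adjusted p = 0.471).

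Of 18 retinoid and CDX genes, 11 were tested, 0 were called between SR and WT over 8 libraries, and RXRA was lower in Huh7 than in HepG2, also within the 5 similar libraries, at -0.67 (SE 0.22). In the average of SR over WT in those 5 libraries, ALDH1A1 was called higher in SR, at 1.36 (SE 0.26), and ALDH1A2 lower, at -1.40 (SE 0.27). CDX2, an intestinal activator of posterior HOX genes, was at 17.9 FPKM in HepG2 SR 2 and at most 0.184 in the other 7, and CYP26B1, which degrades retinoic acid, was at 18.0 FPKM in HepG2 SR 2 and at most 1.06 elsewhere. RARB, itself a retinoic acid target, was at 6.59 and 3.31 FPKM in Huh7 WT 1 and Huh7 SR 1 and at most 0.481 elsewhere. The part of these genes in the HOX pattern was not tested. Of 15 genes flanking the clusters, 10 were tested, and HNRNPA1, an RNA-binding protein gene near HOXC, was the sole one called over 8 libraries, rising in HepG2 (1.31), in Huh7 (1.13) and in their average (1.22) on the log2 scale. Among the 5 similar libraries it was called in the average alone, at 1.48 (SE 0.47), and SNX11, near HOXB, was called lower in SR, at -0.80 (SE 0.25). MTX2, beside HOXD, was between 20.7 and 37.8 FPKM in every library.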

How the data were processed

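Polyadenylated RNA of 8 libraries was enriched on oligo(dT) beads and prepared with the NEBNext Ultra kit. The authors deposited FPKM values, 1 per gene and library, already scaled for depth and transcript length. The submitters' processing notes name fastp 0.20.0 and GRCh38, while the aligner, quantifier and annotation are not given in the sources used here. Read totals are not in FPKM and could not be recovered from the steps between low values, so depth is unknown and no counting interval is given. An exact 0 is reported as listed at 0.

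Ensembl identifiers were paired with symbols from a reference table, with positions and exon overlaps from GENCODE release 29 (58228 of 63241 identifiers found), and upstream sequences from RefSeq (GRCh38.p14). The rule on symbols was met by 39 genes, of which 38 are described and counted, and 1 is not reported here. Members, gene lists and the rule for named genes were chosen with earlier results of these data known. Values in every library are printed for genes called in any comparison and for the 3 genes of each cluster with the highest mean FPKM, and other genes appear by range, count or single values.

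The test was run in R 4.3.3 with the limma package, version 3.58.1, on log2(FPKM + 1) of genes that reached an FPKM of 1 in 2 or more libraries, using lmFit and a trended eBayes with 4 residual degrees of freedom and Benjamini-Hochberg adjustment over all 15173 genes, and the pipeline was tested on simulated data. The authors named edgeR, which needs counts. Alternatives were a pseudocount of 0.1, a filter at 0.1 or none, rescaling to a common sum, quantile normalization, each line fitted alone, a replicate block, an untrended eBayes, the adjusted p, the 5 similar libraries, and each library left out. The count of genes whose SR and WT libraries did not overlap, and the values of listed genes within the 5 similar libraries, were added after the data were seen. Figures used matplotlib 3.10.9 and tables pandas 2.3.3, under Python 3.11.15.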

Additional observations from a re-analysis of the deposited data

Results flagged for a closer look

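Taking the 8 libraries as a single set, since groups of 2 are too small for such a test, HepG2 SR 2 lay far above the rest in the summed FPKM of 3 clusters. It was at 26.7 for HOXA, 63.8 for HOXC and 76.8 for HOXD, and in each its gap to the next library exceeded the limit of Dixon's test for a set of 8. The highest of the others was 17.1 for HOXA and 24.5 for HOXC. The summed FPKM of HOXB, at 16.2, and the count of HOX genes reaching an FPKM of 1, at 26, were also highest there without passing it. In a single, normally distributed set chance puts about 1 in 20 past that limit, and 5 measures were examined at both ends. Because HepG2 SR 2 already stood apart over all genes tested, that rate does not apply here, and the flags restate its separation.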

How the results depend on the processing

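The number of HOX genes called was 2 in HepG2, 0 in Huh7, 1 in the average of both lines, 0 in the difference between the lines and 1 between the lines. With an adjusted p under 0.05, a pseudocount of 0.1 or no filter on low values, each count that was above 0 became 0. The cause was not tested. Within the 5 similar libraries the counts were 2 in Huh7, 2 in the average and 0 between the lines. With the replicate number as a block they were 2 in the average and 2 between the lines, and the block changed no other count. The numbers were not taken to pair libraries, since deviations of same-numbered libraries correlated at 0.80 between Huh7 WT and Huh7 SR but at 0.12 in HepG2 and -0.56 between HepG2 SR and Huh7 SR. Leaving out 1 library gave between 0 and 5 called genes in HepG2 (5 without HepG2 SR 1, where 11.5% of all genes were called), 0 to 2 in Huh7, 0 to 2 in the average, 0 to 3 in the difference and 0 to 3 between the lines. No log2 fold change of HOXD1 or HOXD4 that was called changed sign under any alternative. Rescaling to a common sum, quantile normalization, the lower filter and eBayes without trend kept all 5 counts, and fitting each line alone kept those of HepG2 and Huh7.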
